A study of Mus musculus with 20 samples.

Results

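10 genes of the BCL2 family were followed through the first wave of spermatogenesis in the mouse testis: the antiapoptotic genes Bcl2, Bcl2l1, Bcl2l2 and Mcl1, the effectors Bax, Bak1 and Bok, and the BH3-only genes Bcl2l11, Bid and Bad. Every probe set that the array's annotation assigns to one of these symbols alone was taken. The 9 genes other than Bax had such probe sets, 32 of the 45101 on the array, and Bax was not analysed here. RNA of the postnatal testis was measured on 20 single-colour arrays of 3' probe sets, with 2 arrays at each of 10 ages: days 0, 3, 6, 8, 10 and 14, and then days 18, 20, 30 and 35 after birth. No treatment or genotype is named for any group, and the mouse strain and any pooling of animals are not given in the sources used here. Nothing in the labels says that the 2 arrays of a day came from separate animals, so each p-value here reflects the spread between arrays, which may be technical. Levels are deposited probe set intensities on a linear scale and are compared between days for the same probe set, never between probe sets. Differences are of log2(intensity + 7.84), which understates the change of low values, and are given as later minus earlier day with the standard error (SE) of a limma fit to all 20 arrays (n = 2 arrays a day). A difference was called at a Benjamini-Hochberg adjusted p under 0.05 over the 37293 tested probe sets.

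Proteins of this family decide whether the outer membrane of the mitochondrion is opened, the step that releases cytochrome c and starts the caspases. BAX, BAK1 and BOK form the openings, and BCL2, BCL-XL (Bcl2l1), BCL-W (Bcl2l2) and MCL1 hold them back. The BH3-only proteins BIM (Bcl2l11), BID and BAD act on other family members in response to stress, death receptors or loss of survival signals. In the postnatal testis many early germ cells die by apoptosis while the first spermatogonia divide and enter meiosis, and the balance of these proteins is known to matter there: male mice without Bcl2l2 become sterile, and mice without Bax accumulate abnormal germ cells.

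All 9 measured genes changed over the time course, and 8 of them were called between days 14 and 20. Over all tested probe sets 26% were called lower and 20.6% higher from day 14 to day 20. These days lie in different sets of arrays, described below. Between those days Bok, Bcl2l11, Bid, Bcl2l2, Bcl2 and Mcl1 fell, while Bad and Bcl2l1 rose. The Bcl2l1 rise was called only in the probe set used for the gene and not with array medians set equal. With the mean of all probe sets of a gene, the falls of Bcl2 (-0.21) and Bcl2l2 (-0.13) on the log2 scale were not called. In the probe set used for each gene, the falls from day 0 to day 35 were 5.98-fold for Bok, 4.07-fold for Bid and 3.92-fold for Bcl2. They were 3.56-fold for Bcl2l11, 3.00-fold for Bcl2l2 and 2.26-fold for Mcl1, and the rise was 3.08-fold for Bad. The mean of all probe sets gave log2 differences of -1.12 for Bid, -1.38 for Bcl2 and -0.69 for Bcl2l11. It gave -0.55 for Bcl2l2, -0.88 for Mcl1 and 1.89 for Bad. Over the probe sets, 30 of the 32 passed the filter on low values and 25 of these 30 were called over the time course (moderated F test), against 80.3% of all tested probe sets. With day means also at least 2-fold apart, 24 of 30 were called, against 73.1%. The members' share over the time course was therefore near that of the array as a whole, and the values that follow describe when and in which direction each member moved. Because RNA of the testis was measured in bulk and every array has the same 2% trimmed mean, fewer cells of a type and less RNA per cell cannot be told apart.

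Markers of several cell types moved over the same days. The summed intensity of 8 spermatid markers lay between 89.3 and 152 on every array of days 0 to 14, between 785 and 805 on day 20, and between 50028 and 50768 on day 30, and all 8 rose from day 20 to day 35. The 8 spermatocyte markers summed to between 524 and 526 on day 0, between 11472 and 12086 on day 14 and between 18862 and 19440 on day 20. The 8 Sertoli cell markers summed to between 9930 and 10073 on day 14 and between 6005 and 6215 on day 20, and 7 of the 8 fell between those days. Of 5 markers of peritubular myoid cells, 4 fell from day 14 to day 20. The 7 spermatogonia markers summed to between 659.7 and 687 on day 0, between 3163 and 3256 on day 8 and between 2112 and 2305 on day 14. On day 20 their sum lay between 2543 and 2558, above that of day 14. Of the 7 markers, 6 rose from day 0 to day 8, and 5 fell and 1 rose from day 14 to day 20. The 6 Leydig cell markers summed to between 9138 and 9412 on day 0 and between 2595 and 2719 on day 20, all 6 fell from day 0 to day 8, and 5 fell and 1 rose from day 0 to day 35. The 6 endothelial markers summed to between 591 and 644 on day 0 and between 147 and 209 on day 35, and all 6 fell from day 0 to day 35. The 6 macrophage markers summed to between 529 and 545 on day 0 and between 1897 and 2403 on day 14, and all 6 rose from day 8 to day 14. The part of these changes in the members' values was not tested.

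The deposited arrays also fall into sets by their lowest values. The 20th percentile of intensity was 5.12 to 6.65 on the 12 arrays of days 0 to 14 and 9.41 to 12.9 on the 8 arrays of days 18 to 35. The labels name no batch, and day 20 against day 14 and day 35 against day 0 cross this step, so a technical difference between the sets and the difference between the days cannot be told apart there. The other 3 comparisons lie within a set, and the fit to the arrays of that set alone is given beside each member difference whose call it changes. Across probe sets the 2 arrays of a day correlated with Pearson's r from 0.934 (day 30) to 0.981 (day 6). For 1 array, titled day 18 replicate 2, another label names day 0. On the 2 arrays titled day 18 the 8 spermatocyte markers summed to between 17139 and 17954, against between 524 and 526 on day 0. The array was kept as day 18. Its values enter none of the 5 differences between days, but they enter the estimate of spread that all of them share. Without it, 9 of 9 genes and 25 of 30 probe sets were called over the time course, as with it, and 1 member difference gained a call. This was the difference of the Mcl1 probe set 1416881_at from day 8 to day 14, at -0.33 (adjusted p = 0.0446). With 2 arrays for each day, precision is limited throughout.

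The windows of 250 bases before the RefSeq start of the 5 genes with the largest differences from day 0 to day 35, 4 falls and 1 rise, are shown so that genes of opposite course can be read side by side (GRCm38.p6, 5′ to 3′ on the gene's strand). Capitals mark motif matches on either strand. The motifs are the GC box GGGCGG, the CCAAT box, spelled by its name, and a forkhead motif. The forkhead motif is GTAAACA. No 2 marked matches overlap in the windows printed. Bok lies at chr1:93685325-93685574, plus strand, Bid at chr6:120916825-120917074, minus strand, Bcl2 at chr1:106714291-106714540, minus strand, the first of 2 Bcl2l11 windows at chr2:128125788-128126037, plus strand and the first of 2 Bad windows at chr19:6941611-6941860, plus strand.
Bok: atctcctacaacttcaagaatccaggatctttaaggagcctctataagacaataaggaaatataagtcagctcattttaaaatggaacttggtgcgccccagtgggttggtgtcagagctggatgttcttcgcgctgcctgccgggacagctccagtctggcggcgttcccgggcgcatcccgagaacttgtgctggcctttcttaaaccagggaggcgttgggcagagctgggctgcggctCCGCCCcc
Bid: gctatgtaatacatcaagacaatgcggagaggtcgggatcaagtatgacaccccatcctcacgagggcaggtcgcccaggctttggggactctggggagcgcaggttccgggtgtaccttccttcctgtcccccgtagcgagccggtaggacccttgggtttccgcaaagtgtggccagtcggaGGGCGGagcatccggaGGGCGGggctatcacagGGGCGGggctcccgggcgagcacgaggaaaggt
Bcl2: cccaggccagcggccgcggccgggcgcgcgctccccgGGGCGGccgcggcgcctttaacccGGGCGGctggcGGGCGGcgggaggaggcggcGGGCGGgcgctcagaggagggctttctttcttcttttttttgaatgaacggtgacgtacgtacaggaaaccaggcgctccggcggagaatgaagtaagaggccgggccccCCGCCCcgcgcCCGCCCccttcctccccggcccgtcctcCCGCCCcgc
Bcl2l11: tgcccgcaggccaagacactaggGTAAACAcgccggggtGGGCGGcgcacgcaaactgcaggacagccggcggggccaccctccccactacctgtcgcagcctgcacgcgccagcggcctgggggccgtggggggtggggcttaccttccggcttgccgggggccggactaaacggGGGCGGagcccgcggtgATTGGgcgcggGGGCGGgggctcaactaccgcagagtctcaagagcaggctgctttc
Bad: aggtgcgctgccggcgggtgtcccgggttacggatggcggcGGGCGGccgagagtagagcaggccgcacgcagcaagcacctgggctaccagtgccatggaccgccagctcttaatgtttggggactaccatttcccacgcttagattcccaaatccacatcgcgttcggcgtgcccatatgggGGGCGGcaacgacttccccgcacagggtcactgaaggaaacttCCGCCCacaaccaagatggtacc
A GC box was found in all 5 windows, 1 in Bok, 3 in Bid, 7 in Bcl2, 3 in Bcl2l11 and 3 in Bad. Of the second windows of the latter genes, not printed, that of Bcl2l11 holds 2 GC boxes and 2 CCAAT boxes, and that of Bad holds 1 CCAAT box and no GC box. Of the members without a printed window, Bax, Bcl2l2 and Mcl1 have a window with a GC box, and Bcl2l1 and Bak1 have none. Among 32851 RefSeq windows of this length, 32.7% hold a GC box, 33.9% a CCAAT box and 3.17% the forkhead motif. These shares are not matched for GC content, which runs from 55.2% (Bok) to 74.8% (Bcl2) in the 5 windows printed. The Bcl2l11 window also holds 1 CCAAT box and 1 forkhead motif. The E-box CACGTG (6.02% of windows) and the cAMP response element TGACGTCA (1.55%) were searched on both strands and do not occur in the 5 windows printed. A match is a description of these letters and not a binding site.

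**Figure D1:**
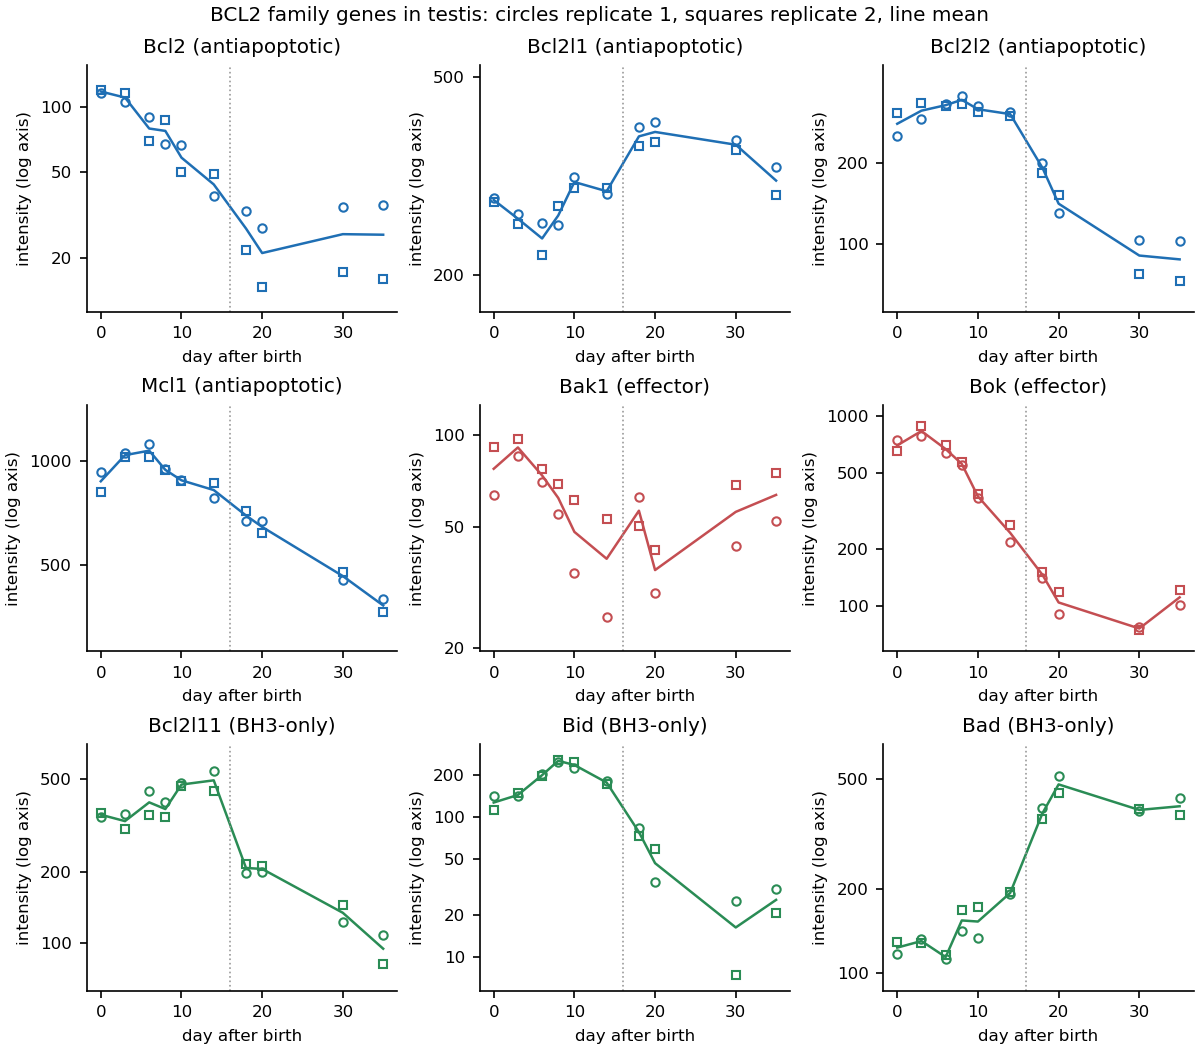
Intensity of the probe set used for each of the 9 genes (log axis) against day after birth, with circles for replicate 1, squares for replicate 2, a line through the day means and a dotted line between the array sets of days 0 to 14 and 18 to 35. Bok falls from 833 on day 3 to 75.8 on day 30, and Bad goes from 194 on day 14 to 477 on day 20, while the 2 Bak1 arrays of day 14 lie apart, at 25.3 and 53.1.

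Of the antiapoptotic genes, Bcl2 is the founding member of the family. In the probe set used for the gene it was highest at birth and lower on each later day measured until day 20. Of its other probe sets, 1437122_at and 1440770_at were also highest on day 0, 1443837_x_at on day 3 and 1422938_at on day 30. The probe set used, 1457687_at, read 116 and 119.7 on day 0, 105 and 115 on day 3, and 89.5 and 69.2 on day 6. The level was 67.4 and 87.3 on day 8, 66.6 and 49.8 on day 10, and 38.7 and 48.8 on day 14. It was 33.03 and 21.7 on day 18, and 27.5 and 14.6 on day 20. The last values, 34.2 and 17.3 on day 30, and 35.3 and 15.96 on day 35, overlap with those of day 20. Bcl2 fell by 1.97 ± 0.33 on the log2 scale (adjusted p = 2.5e-05) from day 0 to day 35. The fall from day 14 to day 20 was -0.87 ± 0.33 (SE, n = 2 arrays a day; adjusted p = 0.0363). This call was lost without day 14 replicate 1, at -1.01 (adjusted p = 0.063), without day 14 replicate 2, at -0.72 (adjusted p = 0.183), and without day 20 replicate 2, at -0.54 (adjusted p = 0.281). The differences of -0.57 ± 0.33 (adjusted p = 0.3) from day 0 to day 8 and -0.72 ± 0.33 (adjusted p = 0.161) from day 8 to day 14 were not called, but both passed in a fit to days 0 to 14 alone, with adjusted p of 0.0471 and 0.0127. From day 20 the Bcl2 values, 14.6 to 35.3, lie around the 40th percentile of their own arrays, 24.3 to 30.3, and no detection calls were available to say which are above background. The Bcl2 difference from day 14 to day 20 was -0.21 (adjusted p = 0.424) with the mean of all 5 Bcl2 probe sets. It was -0.33 (adjusted p = 0.16) with a floor at the pooled median. Neither was called.

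Mcl1, a short-lived antiapoptotic protein needed in many cell types, read between 785 and 1119.8 until day 14 and was lower from day 18. Its probe set 1448503_at read 933 and 816 on day 0, 1057 and 1025 on day 3, and 1119.8 and 1025 on day 6. The values were 947 and 941 on day 8, 884 and 876 on day 10, and 785 and 866 on day 14, and the neighbouring days 10, 0 and 14 in the order of levels overlap. They then stood at 674 and 719 on day 18, and 672 and 619 on day 20, and at 453 and 478 on day 30, and 399 and 367 on day 35, with no overlap between any of these 4 days. Mcl1 fell by 0.35 ± 0.09 on the log2 scale (adjusted p = 0.00275) from day 14 to day 20 and fell by 0.74 ± 0.09 on the log2 scale (adjusted p = 1.21e-06) from day 20 to day 35, and over the whole span from day 0 it fell by 1.17 ± 0.09 on the log2 scale (adjusted p = 2.76e-10). The call of the later step held in a fit to days 18 to 35 alone, at -0.74 (adjusted p = 9.81e-05), and with the mean of all 6 Mcl1 probe sets it was -0.49 (adjusted p = 0.000293).

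Bcl2l2, whose product BCL-W is required for male fertility in mice, varied between 251 and 351 until day 14 and was lower on every later day. The probe set 1423572_at was lowest before day 18 on day 0, at 251 and 304, and read 289.6 and 331 on day 3, 329 and 322 on day 6, and 351 and 329.7 on day 8. The level was 322 and 307 on day 10, and 307 and 296 on day 14, then 199.8 and 183 on day 18, and 130.4 and 152 on day 20. On the last days it was 104 and 77.96 on day 30, and 103 and 73.3 on day 35, which overlap, so that the levels of days 18, 20 and 30 formed 3 separate steps downward. Bcl2l2 fell by 1.06 ± 0.16 on the log2 scale (adjusted p = 1.44e-05) from day 14 to day 20, and fell by 1.59 ± 0.16 on the log2 scale (adjusted p = 2.06e-08) from day 0 to day 35. The fall from day 20 to day 35 was -0.65 ± 0.16 (SE, n = 2 arrays a day; adjusted p = 0.00273), and its call was lost without day 35 replicate 2, at -0.43 (adjusted p = 0.0655). Neither step was called with the mean of all 4 Bcl2l2 probe sets, at -0.13 (adjusted p = 0.617) from day 14 to day 20 and -0.20 (adjusted p = 0.494) from day 20 to day 35. The difference from day 0 to day 35 was then -0.55 (adjusted p = 0.0247).

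Bcl2l1, which encodes BCL-XL and is expressed in germ cells of the testis, was the 1 antiapoptotic gene called higher from day 14 to day 20. The probe set 1420888_at read 286 and 280.3 on day 0, 266 and 254 on day 3, and 255 and 219.8 on day 6, its lowest day. It stood at 252 and 275 on day 8, 315 and 300.0 on day 10, and 291 and 299 on day 14. The values of 397 and 363 on day 18, and 406 and 369.7 on day 20 had the highest means, and all lay above every array of days 0 to 14, and those of days 30 and 35 were 374 and 357, and 329 and 290.2. The rise from day 14 to day 20 was 0.38 ± 0.11 (SE, n = 2 arrays a day; adjusted p = 0.00685), 1.31-fold. It was not called without day 20 replicate 1, at 0.32 (adjusted p = 0.0686), or with array medians set equal, at 0.17 (adjusted p = 0.272). The fall from day 20 to day 35, -0.32 ± 0.11 (adjusted p = 0.0292), was lost without day 20 replicate 1, at -0.25 (adjusted p = 0.181), without day 35 replicate 2, at -0.23 (adjusted p = 0.201), in a fit to days 18 to 35 alone, at -0.32 (adjusted p = 0.0637), with quantile normalization, at -0.23 (adjusted p = 0.111), and with array medians set equal, at -0.29 (adjusted p = 0.086). Day 35 differed from day 0 by 0.12 ± 0.11 (adjusted p = 0.333), which was not called. That difference was called with quantile normalization, at 0.26 (adjusted p = 0.0414), and was -0.01 with array medians set equal.

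Of the effectors, Bok had the largest fall of the 9 genes from day 0 to day 35. Bok encodes a pore-forming protein related to BAX and BAK1. The probe set 1417040_a_at read 747 and 651 on day 0, 784 and 881 on day 3, and 635 and 703 on day 6. It was 548 and 569 on day 8, 367 and 385 on day 10, and 216 and 268 on day 14, and from day 6 onward each of these days lay wholly below the one before. It was then 139.6 and 151 on day 18, and 90.4 and 117 on day 20, and lowest at 76.9 and 74.7 on day 30, 10.99-fold below the mean of day 3, before 101 and 121 on day 35. Bok fell by 1.19 ± 0.14 on the log2 scale (adjusted p = 2.17e-06) from day 8 to day 14 and fell by 1.16 ± 0.14 on the log2 scale (adjusted p = 8.05e-07) from day 14 to day 20, 2.28-fold and 2.24-fold. The whole fall from day 0 to day 35 was -2.58 ± 0.14 (SE, n = 2 arrays a day; adjusted p = 1.22e-12). The difference from day 0 to day 8, -0.32 ± 0.14 (adjusted p = 0.142), was not called over all 20 arrays and passed in a fit to days 0 to 14 alone (adjusted p = 0.0459). From day 20 to day 35 the difference was 0.09 ± 0.14 (adjusted p = 0.679), which was not called.

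Bak1, the other measured effector, was called in none of the 5 comparisons in the fit to all 20 arrays. The probe set 1418991_at read 63.7 and 91.1 on day 0, 85.3 and 96.6 on day 3, 69.9 and 77.2 on day 6, and 55.1 and 69.00 on day 8. On the following days it was 35.2 and 60.9 on day 10, and 25.3 and 53.1 on day 14, and the ranges of these days overlap. The last values were 62.5 and 50.2 on day 18, 30.2 and 41.7 on day 20, 43.2 and 68.6 on day 30, and 52.2 and 74.8 on day 35. In the order of its day means every one of the 9 pairs of neighbouring days overlapped. The time course test passed (adjusted p = 0.0293), and the largest difference was 0.70 ± 0.32 (SE, n = 2 arrays a day; adjusted p = 0.0996) from day 20 to day 35. That difference was called with quantile normalization, at 0.96 (adjusted p = 0.026), and with the replicate number as a block, at 0.70 (adjusted p = 0.0442).

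Of the BH3-only genes, Bcl2l11, whose product BIM binds all antiapoptotic members, was highest on days 10 and 14 and lower from day 18. The probe set 1456005_a_at read 346 and 359 on day 0, 355 and 307 on day 3, and 443 and 353 on day 6. The level was 400.2 and 345 on day 8, 479.9 and 469 on day 10, and 543 and 446 on day 14. Every array of days 0 to 14 was above or equal to 307, whereas day 18 gave 199 and 218 and day 20 gave 201 and 212. The level was 123 and 145 on day 30, and 107 and 80.8 on day 35, with no overlap between those days. Bcl2l11 fell by 1.22 ± 0.15 on the log2 scale (adjusted p = 1.09e-06) from day 14 to day 20, 2.33-fold, and fell by 1.08 ± 0.15 on the log2 scale (adjusted p = 7.05e-06) from day 20 to day 35. The later step held in a fit to days 18 to 35 alone, at -1.08 (adjusted p = 0.000684). The mean of all 5 Bcl2l11 probe sets differed by -0.64 (adjusted p = 0.00446) from day 14 to day 20. It differed by -0.43 (adjusted p = 0.0545) from day 20 to day 35, which was not called, and by -0.69 (adjusted p = 0.00165) from day 0 to day 35. The difference of 0.40 ± 0.15 (adjusted p = 0.0746) from day 8 to day 14 was not called over all 20 arrays and passed in a fit to days 0 to 14 alone (adjusted p = 0.0283).

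Bid, which links death receptors to mitochondria once it is cut by caspase-8, was highest on day 8. The probe set 1417045_at read 143 and 112 on day 0, 141 and 148 on day 3, and 204 and 197 on day 6. It reached its highest values on day 8 at 251 and 257, followed by 227 and 247 on day 10, and 181 and 173 on day 14. It then read 83.5 and 73.2 on day 18, and 34.1 and 59.7 on day 20, and 25.1 and 7.42 on day 30, and 30.5 and 20.6 on day 35. Days 8, 10, 6, 14 and 3 did not overlap with one another in this order, and neither did days 0, 18 and 20. The rise from day 0 to day 8 was 0.96 ± 0.28 (SE, n = 2 arrays a day; adjusted p = 0.0219), 1.94-fold. Its call was lost without day 0 replicate 1, at 1.12 (adjusted p = 0.0504), without day 0 replicate 2, at 0.80 (adjusted p = 0.184), without day 8 replicate 1, at 0.98 (adjusted p = 0.0985), and without day 8 replicate 2, at 0.94 (adjusted p = 0.112). Over the same days 6 of 7 spermatogonia markers rose, and their part in the Bid rise was not tested. Bid fell by 1.80 ± 0.28 on the log2 scale (adjusted p = 2.06e-05) from day 14 to day 20, 3.48-fold. This was the largest change in that comparison among the probe sets used for the 9 genes. From day 0 to day 35 Bid fell by 2.02 ± 0.28 on the log2 scale (adjusted p = 1.92e-06). With the mean of all 3 Bid probe sets these differences were -1.24 (adjusted p = 3.52e-05) and -1.12 (adjusted p = 5.06e-05). The mean of the Bad probe sets changed more from day 14 to day 20, by 1.39. The difference of -0.69 ± 0.28 (adjusted p = 0.0613) from day 20 to day 35 was not called over all 20 arrays. It was called without day 20 replicate 1, at -1.03 (adjusted p = 0.0191), without day 35 replicate 1, at -0.90 (adjusted p = 0.0446), and without either array of day 30. From day 8 to day 14 the difference was -0.50 ± 0.28 (adjusted p = 0.271), which was not called over all 20 arrays and passed in a fit to days 0 to 14 alone (adjusted p = 0.00603). Day 30 replicate 2, at 7.42, lies below the 20th percentile of its own array, 12.9.

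Bad was the 1 of the 9 genes that was called higher on day 35 than on day 0. Its product is held inactive by 14-3-3 proteins when survival signals phosphorylate it. The probe set 1416583_at read 118 and 129.7 on day 0, 133 and 128 on day 3, and 112 and 116 on day 6. It was 141 and 168 on day 8, 134 and 173 on day 10, and 193 and 196 on day 14. The values of 393 and 358 on day 18, and 511 and 442 on day 20 were all above every earlier array, and the level stayed there at 381 and 390.4 on day 30, and 427 and 369 on day 35. Bad rose by 1.26 ± 0.14 (adjusted p = 2.85e-07) from day 14 to day 20, 2.39-fold, and by 1.62 ± 0.14 (adjusted p = 1.84e-09) from day 0 to day 35. The other Bad probe set, 1416582_a_at, gave 1.51 ± 0.32 (adjusted p = 0.000721) and 2.16 ± 0.32 (adjusted p = 7.24e-06) for the same comparisons. From day 20 to day 35 the Bad difference was -0.26 ± 0.14 (adjusted p = 0.168), which was not called.

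**Figure D2:**
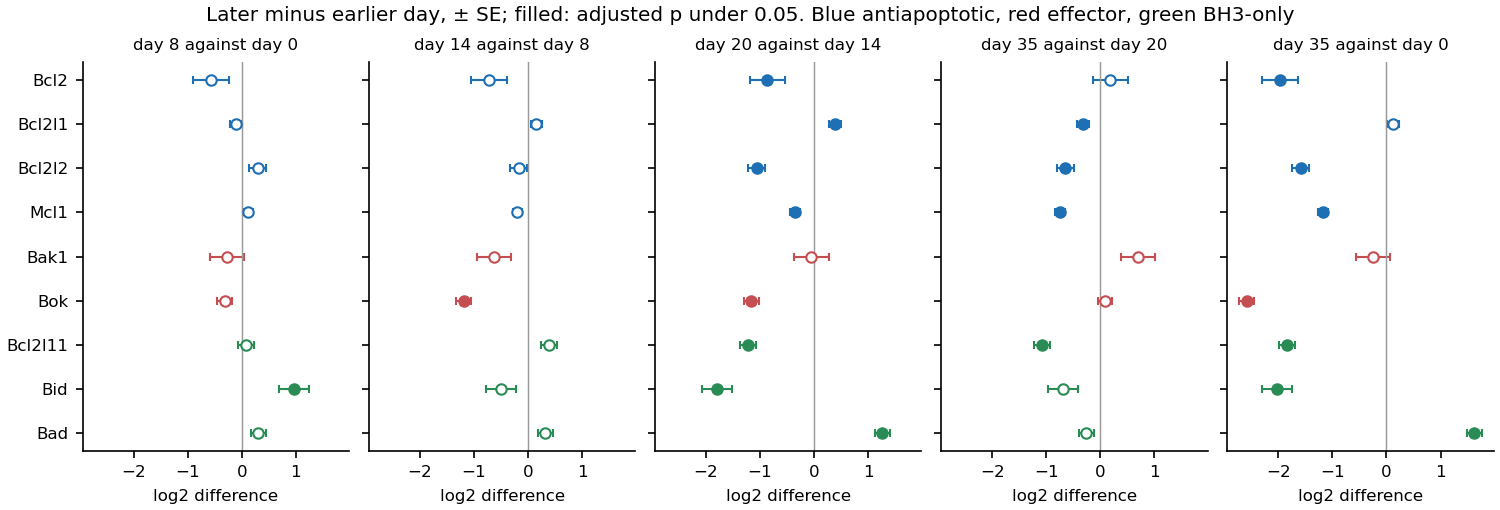
Log2 difference (later minus earlier day) ± SE of the probe set used for each of the 9 genes in the 5 comparisons, filled where the adjusted p was under 0.05, with antiapoptotic genes in blue, effectors in red and BH3-only genes in green. Most filled points lie left of 0 in day 20 against day 14 and in day 35 against day 0, and Bad lies right of 0 in both, at 1.26 and 1.62.

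Counted by comparison over all 20 arrays, few member differences were called up to day 14, and the number depends on which arrays enter the fit. Between day 0 and day 8, 1 gene (Bid) and 3 of 30 probe sets were called higher, against 8.14% of all tested probe sets, and 0 were called lower in limma, against 6.67%. At an unadjusted p under 0.05, 5 were higher and 1 lower, against 13.1% and 12.7% of all tested probe sets. From day 8 to day 14, 1 gene (Bok) and 1 of 30 probe sets were called lower, against 7.73%, and 0 higher, against 8.87%. At an unadjusted p under 0.05 these were 6 lower and 3 higher, against 13.3% and 13.3%. The median difference was -0.01 over the members and -0.03 over all probe sets in the earlier of these comparisons, and -0.17 and -0.02 in the later. A fit to the arrays of days 0 to 14 alone called 1 gene and 4 probe sets higher and 2 genes and 2 probe sets lower from day 0 to day 8, against 11.6% and 10.8% of all probe sets in that fit. From day 8 to day 14 it called 1 gene and 2 probe sets higher and 3 genes and 5 probe sets lower, against 11.1% and 13.4%.

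From day 14 to day 20, 6 of 9 genes and 15 of 30 probe sets were called lower, against 26% of all tested probe sets, and 2 genes and 4 probe sets higher, against 20.6%. The median difference was -0.43 over the members and -0.03 over all. From day 20 to day 35, 4 genes and 11 probe sets were lower, against 24.4%, and 2 probe sets higher, against 9.33%, with medians of -0.25 and -0.17. Over the whole span from day 0 to day 35, 6 genes and 16 probe sets were lower, against 37.2%, and 1 gene and 4 probe sets higher, against 28.1%, with medians of -1.10 and -0.13. Probe sets of a gene share their transcript and are not independent, and Mcl1 and Bcl2l11 alone hold 11 of the 30. With array medians set equal, the share of calls that were higher among all probe sets moved from 55% to 70.3% in day 8 against day 0 and from 44.2% to 33.4% in day 20 against day 14, and the median difference of the latter from -0.03 to -0.21.

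The probe sets of 1 gene did not always move alike. Of 6 for Mcl1, 5 fell from day 14 to day 20 and again to day 35, with differences from day 0 to day 35 between -1.51 and -1.04. For 1416880_at the fall from day 14 to day 20 was not called without day 14 replicate 2 or day 20 replicate 2 (adjusted p up to 0.0883), nor for 1456381_x_at without day 14 replicate 2 (adjusted p = 0.0688). The sixth, 1416881_at, read 267 and 260.4 on day 0, 247 and 248 on day 20, 412 and 437 on day 30, and 575 and 463 on day 35. It rose by 1.04 ± 0.12 (adjusted p = 1.37e-06) from day 20 to day 35, when the other 5 fell, and by 0.95 ± 0.12 (adjusted p = 1.1e-06) from day 0. Its rise of 0.37 ± 0.12 (adjusted p = 0.0465) from day 0 to day 8 lost its call without 14 of the 20 arrays in turn, among them all 4 of those days, at adjusted p of up to 0.214. From day 8 to day 14 its difference of -0.33 ± 0.12 (adjusted p = 0.0755) was not called over all 20 arrays. It was called in a fit to days 0 to 14 alone (adjusted p = 0.0114), with quantile normalization, at -0.36 (adjusted p = 0.0452), and without either array of day 18 or of day 35.

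For Bcl2l11, 1435448_at and 1435449_at fell with the probe set used for the gene, with differences from day 14 to day 20 of -0.87 ± 0.18 (adjusted p = 0.000598) and -0.94 ± 0.32 (adjusted p = 0.0222). The call of 1435449_at was lost without any 1 of the 4 arrays of days 14 and 20, at adjusted p of up to 0.103. The probe set 1426334_a_at went the other way, with 37.5 and 31.6 on day 0, 51.1 and 44.8 on day 20, 102 and 133 on day 30, and 104 and 109 on day 35. It rose by 1.04 ± 0.21 (adjusted p = 0.000687) from day 20 to day 35 and by 1.44 ± 0.21 (adjusted p = 6.53e-06) from day 0 to day 35. Its difference of 0.62 ± 0.21 (adjusted p = 0.0579) from day 0 to day 8 was not called over all 20 arrays. It was called in a fit to days 0 to 14 alone (adjusted p = 0.0298), with array medians set equal, at 0.72 (adjusted p = 0.0315), and without either array of day 30. The fit to days 0 to 14 alone also called the difference of 0.39 ± 0.18 (adjusted p = 0.172) of 1435448_at from day 8 to day 14 (adjusted p = 0.0175). The fall of 1435449_at from day 20 to day 35, -1.01 ± 0.32 (adjusted p = 0.019), was lost in a fit to days 18 to 35 alone (adjusted p = 0.157) and without day 20 replicate 1, day 20 replicate 2 or day 35 replicate 2 (adjusted p up to 0.191). The fifth, 1456006_at, was not called over the time course (adjusted p = 0.776).

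The probe sets of Bcl2l1 also parted. While 1420888_at rose, 1420887_a_at went from 108 and 99.4 on day 14 to 21.7 and 20.9 on day 20 and fell by 1.93 ± 0.35 on the log2 scale (adjusted p = 0.000143). Its fall from day 0 to day 35, -1.32 ± 0.35 (adjusted p = 0.0028), lost its call without day 35 replicate 2 (adjusted p = 0.0707). With the mean of all Bcl2l1 probe sets in place of 1420888_at, the gene's difference from day 14 to day 20 turned to -0.60 (adjusted p = 0.0437). Of the other probe sets, 1426191_a_at was not called over the time course (adjusted p = 0.582), and 1426050_at was below the filter on every array.

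For Bid, 1448560_at was highest on day 8 like the probe set used for the gene, with 28.3 and 33.7 on day 0, 87.9 and 66.9 on day 8, 69.1 and 62.4 on day 14, and 4.84 and 7.54 on day 20. It rose by 1.13 ± 0.31 (adjusted p = 0.016) from day 0 to day 8, and this was not called without day 0 replicate 1, day 0 replicate 2 or day 8 replicate 1 (adjusted p up to 0.157), and fell by 2.40 ± 0.31 on the log2 scale (adjusted p = 2.36e-06) from day 14 to day 20. The day 20 values of 1448560_at lie below the 20th percentile of their own arrays, 9.41 and 10.1. The other Bid probe set, 1447873_x_at, was not called over the time course (adjusted p = 0.335).

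Of the other 4 Bcl2 probe sets, 1437122_at and 1440770_at fell from day 0 to day 35, with differences of -2.25 ± 0.33 (adjusted p = 4.87e-06) and -1.71 ± 0.41 (adjusted p = 0.00105). On day 35 1437122_at read 4.23 and 10.7, and 1440770_at read 3.94 and 2.23. These values lie below the 20th percentile of their own arrays, 10.1 and 10.8. With a floor at the pooled median 1440770_at differed by -0.02 (adjusted p = 0.0851), not called. With that floor the difference of 1437122_at from day 20 to day 35 was not called either. The probe set 1443837_x_at differed by -0.88 ± 0.42 (adjusted p = 0.0738) and 1422938_at by -0.08 ± 0.40 (adjusted p = 0.877), neither of them called. Between those days 1422938_at was lowest on day 10, at 15.3 and 8.09, and highest on day 30, at 78.4 and 81.95. The value of 1443837_x_at turned on the 2 arrays of day 35, which read 42.7 and 8.24. It was called at -1.71 (adjusted p = 0.00123) without day 35 replicate 1 and stood at -0.05 without day 35 replicate 2. It was also called with array medians set equal, at -0.98 (adjusted p = 0.0467). Its difference from day 20 to day 35, 0.83 ± 0.42 (adjusted p = 0.145), was called without day 35 replicate 2, at 1.66 (adjusted p = 0.00336). From day 8 to day 14 1437122_at differed by -0.89 ± 0.33 (adjusted p = 0.075), which was not called over all 20 arrays and was called in a fit to days 0 to 14 alone (adjusted p = 0.0193). From day 20 to day 35 1437122_at fell by 1.09 ± 0.33 on the log2 scale (adjusted p = 0.0135), which was not called in a fit to days 18 to 35 alone (adjusted p = 0.111) or without day 20 replicate 2 or day 35 replicate 1 (adjusted p up to 0.132). Of the other 3 for Bcl2l2, all under 52 on every array, 1451029_at rose by 0.97 ± 0.35 (adjusted p = 0.0315) and 1430454_x_at fell by 1.05 ± 0.41 on the log2 scale (adjusted p = 0.0392) from day 14 to day 20. The first of these calls was lost without day 14 replicate 2 or day 20 replicate 2 (adjusted p up to 0.249). The other was lost without day 14 replicate 2, day 20 replicate 1 or day 20 replicate 2 (adjusted p up to 0.297). The probe set 1430453_a_at was not called over the time course (adjusted p = 0.184). Its difference of -1.22 ± 0.49 (adjusted p = 0.0614) from day 20 to day 35 was called without day 35 replicate 2, at -1.72 (adjusted p = 0.0301), and without any 1 of the 4 arrays of days 10 and 30. The probe set 1425716_s_at of Bak1 was above the filter on 1 array and was not tested.

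**Figure D3:**
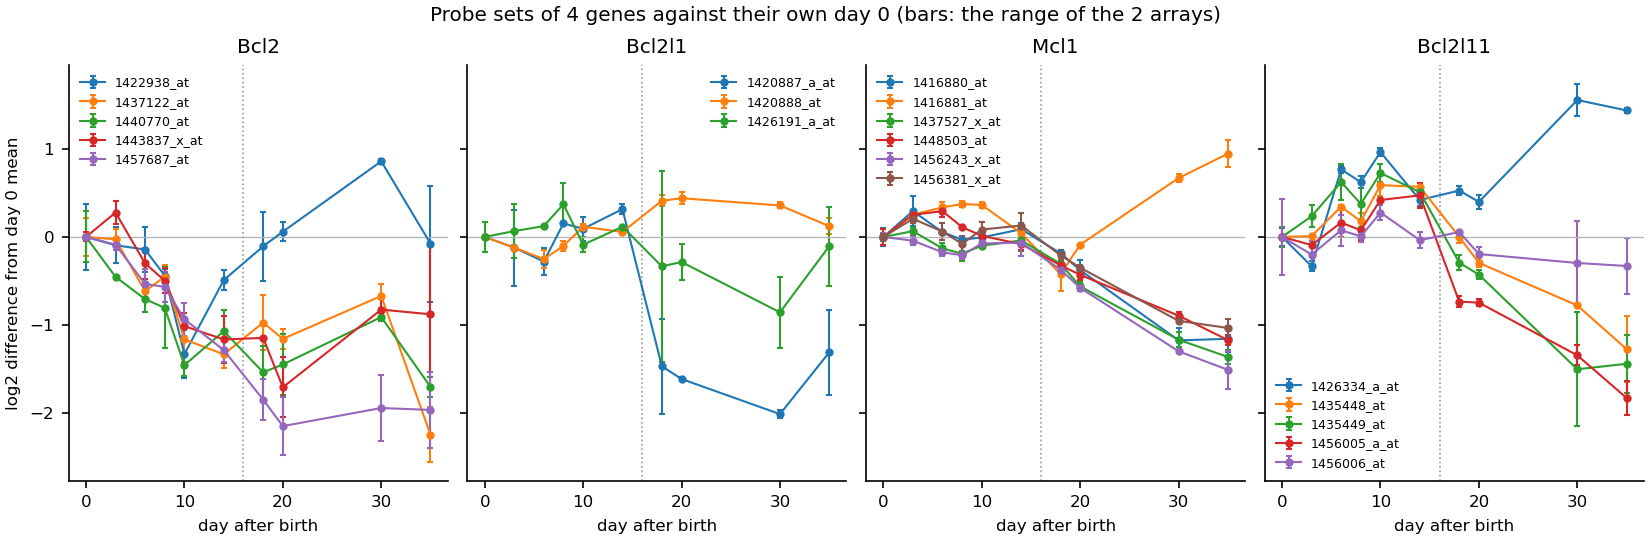
Log2 difference of each tested probe set of Bcl2, Bcl2l1, Mcl1 and Bcl2l11 from its own mean on day 0, against day after birth, with points for day means, bars for the range of the 2 arrays and a dotted line between the array sets. Within Mcl1 and Bcl2l11 1 probe set each (1416881_at and 1426334_a_at) ends above 0, at 0.95 and 1.44 on day 35, while the probe sets used for those genes end at -1.17 and -1.83.

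The courses of the probe sets used for the 9 genes can be described by the correlation of their 10 day means. These means come from the same 20 arrays and share the step between array sets. Bcl2l2 and Bid went most closely together (Pearson's r = 0.98), followed by Bcl2 and Bok (0.98), Bcl2l2 and Mcl1 (0.97) and Bcl2l2 and Bcl2l11 (0.95). Bad ran opposite to Bok (-0.96) and Bcl2 (-0.96) and alongside Bcl2l1 (0.88). Symbols of clones, expressed sequences, predicted genes and Rik genes were left aside. For each member the 3 other genes with the highest correlation of day means were looked up among the remaining genes tested. They were Arhgef4, Gstm2 and Sbk1 for Bok (r = 0.993 to 0.996), Emilin1, Hhip and Gdnf for Bcl2 (0.992 to 0.996), Rab7, Pnrc1 and Cse1l for Bcl2l2 (0.997 to 0.998) and Ctu1, Ywhag and Ids for Mcl1 (0.991 to 0.992). For the BH3-only genes they were Clk2, Nfe2l2 and Hspa14 for Bid (r = 0.995 to 0.996), Traf5, Wac and Kmt2e for Bcl2l11 (0.986 to 0.994) and Apba1, Tmem45b and Med16 for Bad (0.993 to 0.994). The likeness was lower for Bcl2l1, with Mpo, Cyfip2 and Alkbh5 (r = 0.958 to 0.969), and for Bak1, with Mapk12, Hecw2 and Rdm1 (0.926 to 0.930). Gdnf, one of those named for Bcl2, is a growth factor for spermatogonial stem cells. These names are a description over 10 points, chosen as the highest of the tested genes that remained after those symbols were left aside.

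Around the members, other genes of the apoptosis pathway were counted in lists by role, 1 probe set a gene. The shares of all tested probe sets called, given with the members' counts, are the background of these counts too, although they count probe sets and not genes. Of 11 tested genes of the wider BCL2 family, 3 rose and 3 fell from day 14 to day 20, and 5 rose and 4 fell from day 0 to day 35. Bcl2l14, a divergent family member, read 22.6 and 6.46 on day 0, 3.70 and 13.3 on day 14, 62.6 and 49.2 on day 20, and 1790.3 and 2029.6 on day 35. It rose by 2.02 ± 0.46 (adjusted p = 0.00114) from day 14 to day 20, when 6 of 8 spermatid markers rose. It rose by 6.52 ± 0.46 (adjusted p = 9.59e-11) from day 0 to day 35, beside the rise of all 8 spermatid markers. The latter difference was 4.30 (adjusted p = 8.89e-10) with the mean of its probe sets. The former was 0.68 with a floor at the pooled median. Bcl2l15, another divergent member, read 3.82 and 1.07 on day 14, and 38.1 and 36.5 on day 20, and the values of day 14 lie below the 20th percentile of their own arrays, 5.97 and 6.19. Its difference of 2.15 ± 0.45 (adjusted p = 0.000644) between those days was 0.11 (adjusted p = 0.233), not called, with a floor at the pooled median. Bmf, a BH3-only gene, fell by 2.33 ± 0.24 (adjusted p = 3.32e-08) from day 0 to day 35, and with the mean of its probe sets it differed by -0.57 (adjusted p = 0.093), not called.

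Of 16 tested genes of the apoptosome, caspases and mitochondrial factors, 9 fell and 3 rose from day 14 to day 20, and 12 fell and 4 rose from day 0 to day 35. The largest rise was that of Cyct, the cytochrome c of the testis, with 133 and 97.4 on day 0, 308 and 338 on day 8, 1102 and 1124 on day 14, and 2726 and 2991 on day 20. It rose by 1.35 ± 0.14 (adjusted p = 1.39e-07) from day 14 to day 20 and by 3.85 ± 0.14 (adjusted p = 3.35e-15) from day 0 to day 35. Septin4, of which 1 product (ARTS) antagonises XIAP and which also forms a ring in the sperm tail, rose by 2.45 ± 0.19 (adjusted p = 4.82e-10) from day 0 to day 35. Casp2, an initiator caspase, fell by 1.34 ± 0.18 (adjusted p = 3.33e-06) from day 14 to day 20.

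Of 6 tested inhibitors of apoptosis, 2 fell and 1 rose from day 14 to day 20, and 4 fell and 2 rose from day 0 to day 35. Xiap, a direct caspase inhibitor, read 818 and 891 on day 0, 379.5 and 434 on day 14, 150.4 and 146 on day 20, and 84.2 and 76.5 on day 35. It fell by 1.41 ± 0.13 (adjusted p = 2.11e-08) from day 14 to day 20, and it fell by 3.29 ± 0.13 (adjusted p = 8.37e-15) from day 0 to day 35. With the mean of all Xiap probe sets the difference from day 14 to day 20 was -0.20 (adjusted p = 0.427), not called, and that from day 0 to day 35 was -0.51 (adjusted p = 0.0357). Birc5, which encodes survivin and also acts in chromosome segregation, rose by 1.67 ± 0.09 (adjusted p = 1.09e-11) from day 14 to day 20, and Birc6 fell by 2.09 ± 0.14 (adjusted p = 7.07e-11) from day 0 to day 35, or -1.14 (adjusted p = 2.41e-05) with the mean of its probe sets.

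Of 9 tested genes of the death receptor pathway, 6 fell from day 14 to day 20, and 4 fell and 2 rose from day 0 to day 35. Fas, a death receptor, fell by 1.35 ± 0.35 (adjusted p = 0.00315) from day 14 to day 20, from 17.2 and 37.5 on day 14 to 5.28 and 5.38 on day 20, and this was not called without day 14 replicate 2, at -0.93 (adjusted p = 0.0807). The Fas values of day 20 lie below the 20th percentile of their own arrays, 9.41 and 10.1. Its difference was -0.06 (adjusted p = 0.0971), not called, with a floor at the pooled median. Tnfrsf1a, a receptor of tumour necrosis factor, fell by 0.86 ± 0.17 (adjusted p = 0.000303). Cflar, an inhibitor of caspase-8 activation, fell by 1.88 ± 0.23 (adjusted p = 4.81e-07) from day 0 to day 35, or -1.24 (adjusted p = 0.000257) with the mean of its probe sets, and Casp8, whose product cuts BID, fell by 1.79 ± 0.14 (adjusted p = 8.19e-10).

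Of 9 tested genes of the p53 pathway, 3 fell and 2 rose from day 14 to day 20, and 4 fell and 4 rose from day 0 to day 35. Ccng1, a cyclin gene induced by p53, read 252 and 233 on day 0, 734 and 734 on day 8, 458 and 474 on day 14, and 196 and 179 on day 20. It rose by 1.57 ± 0.12 (adjusted p = 1.27e-08) from day 0 to day 8 and fell by 1.28 ± 0.12 (adjusted p = 2.64e-08) from day 14 to day 20. The rise to day 8 was 0.46 (adjusted p = 0.0068) with the mean of its probe sets. Ppp1r13l, an inhibitor of p53, rose by 1.49 ± 0.14 (adjusted p = 5.78e-08) from day 14 to day 20 and by 2.11 ± 0.14 (adjusted p = 7.02e-11) from day 0 to day 35. The mean of its probe sets gave 0.91 (adjusted p = 3.39e-05) and 1.38 (adjusted p = 1.1e-07). Atm, a kinase of the DNA damage response, fell by 1.52 ± 0.18 (adjusted p = 3.68e-07) from day 0 to day 35.

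Of 16 tested partners and regulators of the family, 6 fell and 4 rose from day 14 to day 20, and 7 fell and 7 rose from day 0 to day 35. Bag5, a co-chaperone of the BAG family, read 232 and 220.3 on day 0, 265 and 216 on day 14, 1151 and 1145 on day 20, and 3145 and 3027 on day 35. It rose by 2.23 ± 0.10 (adjusted p = 1.54e-12) from day 14 to day 20 and by 3.72 ± 0.10 (adjusted p = 4.03e-17) from day 0 to day 35. The mean of its probe sets gave 1.28 (adjusted p = 5.1e-06) and 1.76 (adjusted p = 3.99e-08). Huwe1, a ubiquitin ligase that targets MCL1, fell by 1.53 ± 0.15 (adjusted p = 5.69e-08) from day 14 to day 20, or -0.82 (adjusted p = 0.00214) with the mean of its probe sets. Akt1, a kinase that phosphorylates BAD, fell by 2.65 ± 0.12 (adjusted p = 1.19e-13) from day 0 to day 35, or -1.32 (adjusted p = 1.69e-06) with the mean of its probe sets. From day 0 to day 35 each of the 6 lists held genes that rose and genes that fell.

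**Figure D4:**
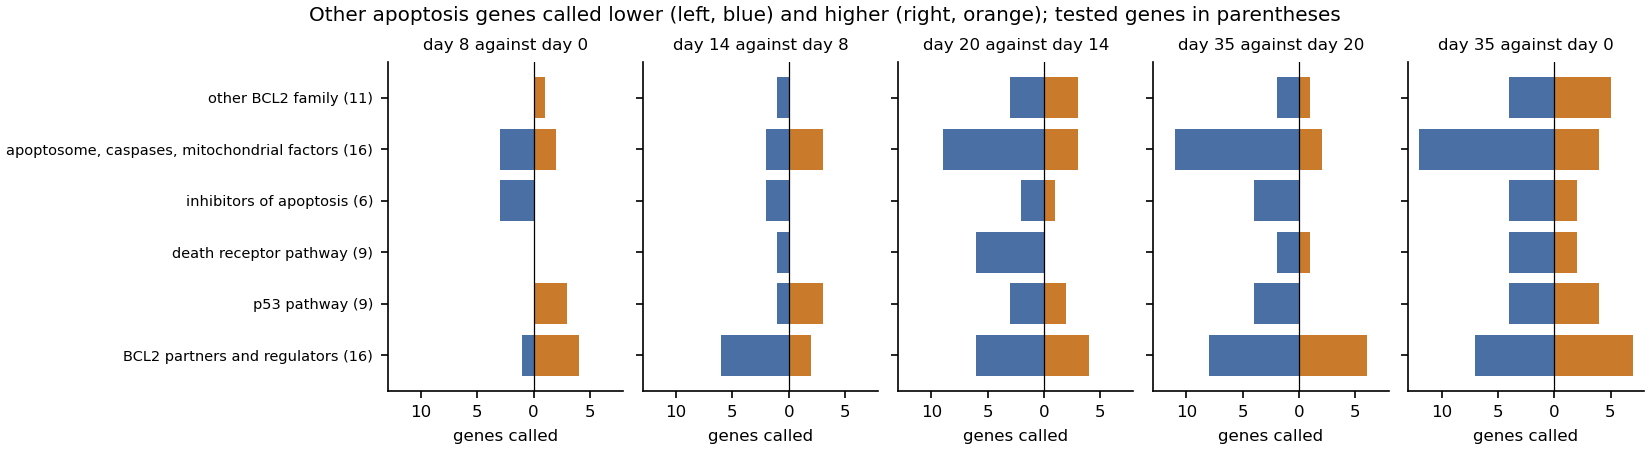
Number of genes called lower (blue, to the left) and higher (orange, to the right) in 6 lists of other apoptosis genes, in each of the 5 comparisons, with the number of genes tested in parentheses. From day 0 to day 35 each list has bars on both sides, with 12 of the 16 apoptosome, caspase and mitochondrial genes lower.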

How the data were processed

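RNA of postnatal mouse testis was extracted with Trizol, amplified with a one-cycle 3' kit and hybridised with a biotin label, per the labels' protocols. The authors deposited one linear intensity per probe set and array. How the probes were summarised, and with which software, is not given in sources used here. On every array the 2% trimmed mean is 125, which shows that the deposited values were scaled. Probe sets were named from the platform annotation: 34958 have 1 gene symbol, 932 have several and were not named, and 9211 are not listed. 64 control probe sets were left out.

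Values were analysed as log2(intensity + 7.84), the pooled 20th percentile. Probe sets above the 40th percentile of their own array on at least 2 arrays entered 1 fit over all arrays in limma 3.58.1 (R 4.3.3). Each day had its own mean in lmFit, and eBayes let the variance follow mean intensity, which left 10 residual and 9.37 prior degrees of freedom. P-values were adjusted by Benjamini-Hochberg over all tested probe sets. Figures and value tables were made in Python 3.11.15. The script was tested on simulated data. Groups follow the day in the sample titles. A gene is described by its probe set of highest mean log2 intensity. All member probe sets are accounted for. Of other pathway genes the text names, per list, those with the 2 largest called differences from day 14 to day 20 and from day 0 to day 35. The members and lists were chosen with earlier results of these data known. Promoter windows are from RefSeq (GRCm38.p6). They held 14 windows for the 10 members.

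Alternatives covered the pseudocount, a floor, the filter, scaling, the probe sets of a gene, the trend, array weights, the threshold, a replicate block, the arrays fitted and leaving out each array in turn.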

Additional observations from a re-analysis of the deposited data

How the results depend on the processing

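Of the members' 56 called differences, tested under each alternative, 1788 of 1905 results kept sign and call, and 26 differences did so under every alternative run. Of 94 uncalled differences, 3152 of 3205 results stayed uncalled. Of the called differences, 2 changed sign: with the mean of all probe sets Bcl2l1 gave -0.60 from day 14 to day 20 and 0.18 from day 20 to day 35. The latter was not called (adjusted p = 0.608). From day 14 to day 20 the Bcl2l1 probe sets differed in direction, and the mean includes 1426050_at, which was below the filter. The cause of these and the other changes was not tested. The time course called 5 member genes and 12 member probe sets in days 18 to 35 alone. From day 0 to day 8, against 1 gene and 3 probe sets in the fit to all arrays, 0 and 0 were called with the pseudocount at the 5th percentile and at adjusted p under 0.01, 2 and 7 with a floor at the pooled median, 0 and 1 with quantile normalization and with at least 2-fold, 3 and 5 with those days alone, 3 and 6 in days 0 to 14 alone, and 0 genes without the trend. From day 8 to day 14, against 1 and 1, the counts were 2 and 2 with the floor, 2 and 4 with array weights, 2 and 3 with those days alone and 4 and 7 in days 0 to 14 alone, and 2 probe sets with quantile normalization. From day 14 to day 20, 5 genes and 9 probe sets were at least 2-fold. From day 20 to day 35, 1 gene and 5 probe sets were at least 2-fold, 1 gene was called with the mean of all probe sets and 2 genes with those days alone. Leaving out each array in turn gave 0 to 1 genes and 0 to 4 probe sets (day 8 against day 0), 1 to 2 and 1 to 4 (day 14 against day 8), 7 to 8 and 13 to 19 (day 20 against day 14), 2 to 5 and 11 to 15 (day 35 against day 20), 7 and 19 to 21 (day 35 against day 0), and 8 to 9 and 23 to 26 (time course). With a floor at the pooled median, Bcl2l15 and Fas were no longer called from day 14 to day 20. Signal near background limits both.

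Over the 45 pairs of days, the deviations of arrays with the same replicate number correlated between -0.027 and 0.091. On 8 of the 10 days the deviations correlated positively with the mean of the other days. Correlations of this size cannot decide whether the numbers pair the samples. With a replicate block, day 14 against day 8 called 2 member probe sets, with Bcl2 1437122_at at -0.89 (adjusted p = 0.0402) added, and Bak1 was called from day 20 to day 35 at 0.70 (adjusted p = 0.0442). The block changed no other call of a member.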
